A study of Rattus norvegicus with 3 samples.

Results

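The receptors for serotonin, dopamine, noradrenaline and adrenaline, acetylcholine, histamine and adenosine were taken as 1 group of genes and followed in tissue labelled motor cortex. The 3 rats were males of the Sprague-Dawley strain and had undergone cerebral ischemia and reperfusion, in which blood supply to the brain is lost and then returns. Members were all genes whose symbol begins with Htr, Drd, Adra, Adrb or Hrh and a digit, Chrm and a digit, Chrn and a subunit letter, or Adora and a digit, with the row of highest mean kept for each symbol. This gave 56 genes of the 26715 symbols in the files. The rats carry the numbers 19, 35 and 70, all are labelled 8 weeks without saying whether that is age or time after the operation, and they form 1 group, so that each value is compared between the rats and no effect of the treatment can be read. No other allele, agent or control group enters the values, and nothing in the labels says how much of the cortex was injured.

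These receptors set how cortical circuits answer to the long axons that reach the cortex from the brainstem and basal forebrain. Serotonin, dopamine, noradrenaline, histamine and acetylcholine are released mostly by such axons, whose cell bodies lie elsewhere, whereas adenosine arises locally from ATP. Most of the receptors act through G proteins: the Gs class raises cyclic AMP, the Gi/o class lowers it, and the Gq class activates phospholipase C. Nicotinic receptors and the serotonin receptor subunits Htr3a and Htr3b are ion channels instead. The receptors sit on neurons for the most part, but some are used by glia, immune cells and vessels.

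Levels are in FPKM, which divides a gene's fragments by its length and by the library's depth, so that genes can be compared. They are given in the order rat 19, rat 35, rat 70. Since the authors' values move in steps of whole fragments, the number of fragments behind each could be estimated, as the fewest the steps allow where a gene's length was not known from its span, at an effective depth of 15560000, 16460000 and 16050000 fragments. Ratios between rats are given where useful with a 95% exact binomial interval on these fragments, which covers counting error only, and no test between groups was possible. Differences called log2 are on the log2(FPKM + 1) scale, which understates those of low genes.

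The libraries differed in their cell type markers. All 11 pan-neuronal markers were lowest in rat 35, and their summed level was 2012, 97.8 and 2813 FPKM. Summed levels of 8 microglia and macrophage markers (629, 1943 and 498), 6 markers of infiltrating leukocytes (205, 2407 and 385), 5 fibroblast markers (232, 2612 and 211, with Col1a2 listed at 0), 6 pericyte and smooth muscle markers (122, 309 and 84.7) and 5 endothelial markers (130, 225 and 101) were highest in rat 35. Summed markers of astrocytes (1154, 437 and 1186) and oligodendrocytes (4031, 3305 and 5447) were lowest there, with 4 of 6 markers lowest in rat 35 in each list. Markers that define the cortex as labelled were uneven too: Tbr1, a transcription factor of deep-layer neurons, was at 14.0, 0.0297 and 3.51, and Slc17a6, the vesicular glutamate transporter typical of thalamus, at 1.73, 0.0147 and 28.7. In bulk tissue, fewer cells of a type and less RNA per cell cannot be told apart, and the part of these cell types in the receptor values below was not tested.

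A mean of 1 FPKM was reached by 27 of the 56 receptors. Another 24 were lower, and 5 (Adora3, Chrnd, Hrh4, Htr3b and Htr7) were listed at 0 in every rat. A listed 0 may be a failed estimate, because the housekeeping genes Hprt1, Rps6 and Rpl8 were also listed at 0. At least 1 FPKM was reached by 26 receptors in rat 19, 9 in rat 35 and 32 in rat 70, and by 8 in every rat. The summed level of the receptors was 152, 62.4 and 272 FPKM (162 ± 105, SD, n = 3), so that rat 35 was 2.43-fold below rat 19 and 4.35-fold below rat 70.

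Among the 27 receptors at a mean of 1 FPKM or more, 24 differed over 2-fold (more than 1 on the log2(FPKM + 1) scale) between their highest and lowest rat, where 42.5% of the 13968 genes at that level did. Rat 35 was lowest for 22, against 36.6% of all genes, and highest for 5, among them Htr2b, Adra2a, Adora2b and Adora2a, against 45.5%. It was over 1 log2 below the mean of the other rats for 18 (15.5% of all genes) and over 1 log2 above it for 2, among them Htr2b (15.3%). Rat 70 was highest for 17 (29.9% of all genes) and lowest for 4 (44.0%), and rat 19 was highest for 5 (24.6%) and lowest for 1 (19.4%). Counting all 56 members, 35 were lowest in rat 35 (24.8% of all symbols) and 9 highest (29.3%). The median deviation of the receptors from their 3-rat mean was 0.23 log2 in rat 19, -1.14 in rat 35 and 0.83 in rat 70, where the median of all genes was 0.02, 0.06 and -0.08. Without rat 35, the median deviation was -0.15 in rat 19 and 0.15 in rat 70. Without rat 35, 11 of 27 receptors were over 2-fold apart, against 10.9% of all genes. These are descriptions of genes that passed a minimum on the mean, which a gene can reach through its highest rat alone.

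**Figure D1:**
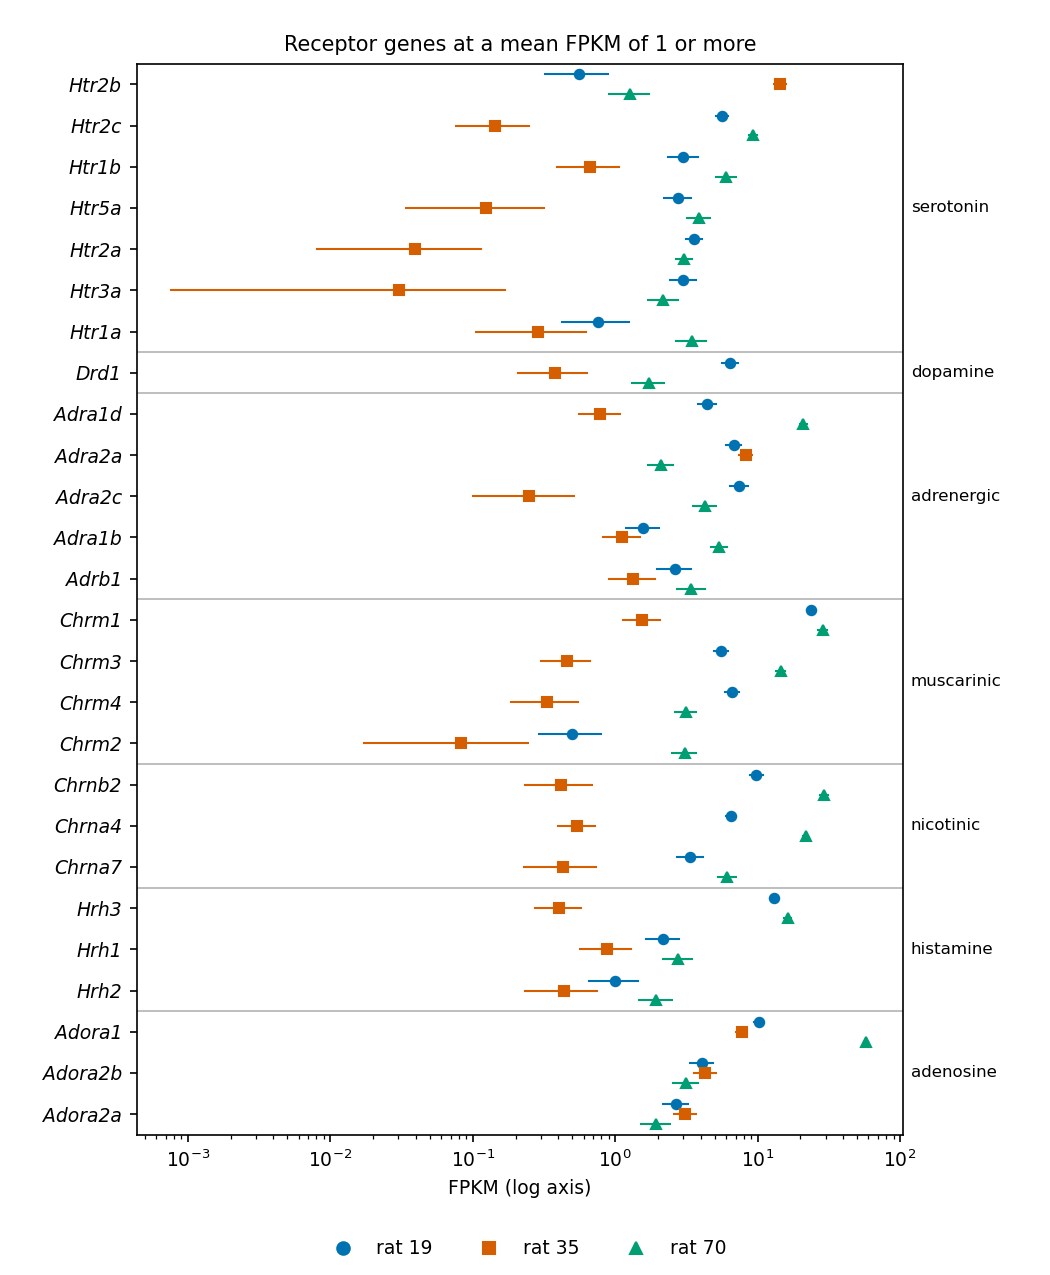
FPKM (log axis) of 26 receptor genes with a mean of 1 FPKM or more in rats 19, 35 and 70, ordered by family; bars are 95% Poisson intervals on the recovered fragments and cover counting error only. Rat 35 is lowest for 22 genes, while Htr2b, Adra2a, Adora2a and Adora2b are highest there.

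The families did not differ between the rats by the same factor. Muscarinic receptors summed to 37.4, 2.80 and 50.3 FPKM (30.2 ± 24.6, SD, n = 3), nicotinic subunits to 23.7, 3.45 and 62.3 (29.8 ± 29.9) and histamine receptors to 16.3, 1.71 and 20.9 (13.0 ± 10.01), so that rat 70 exceeded rat 35 by 18.0-, 18.1- and 12.2-fold. Dopamine receptors summed to 8.37, 0.507 and 2.73 (3.87 ± 4.05) and were the family with its highest sum in rat 19. Serotonin receptors summed to 21.6, 16.2 and 32.8 (23.6 ± 8.45) and adrenergic receptors to 27.7, 22.6 and 39.8 (30.05 ± 8.81), with rat 35 only 1.33- and 1.22-fold below rat 19. Htr2b made up 88.5% of the serotonin sum in rat 35, and Adra2a made up 36.5% of the adrenergic one. Adenosine receptors summed to 17.0, 15.1 and 62.9 (31.7 ± 27.1), with rat 70 apart from the other rats.

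By signalling class, Gs receptors made up 15.02%, 32.2% and 5.76% of the summed receptor FPKM, and ion channel subunits 17.5%, 5.57% and 23.7%. The Gq share was 31.8%, 32.0% and 32.1%, although its largest member differed: Chrm1 in rats 19 and 70 and Htr2b in rat 35. In rat 70, Chrm1 held 28.6 of the 87.2 FPKM of this class, beside Adra1d at 21.0 and Chrm3 at 14.5. Gi/o receptors held 35.6%, 30.2% and 38.4%. In absolute level the Gs class was 22.8, 20.1 and 15.7 FPKM, and it was the class with its lowest sum in rat 70.

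**Figure D2:**
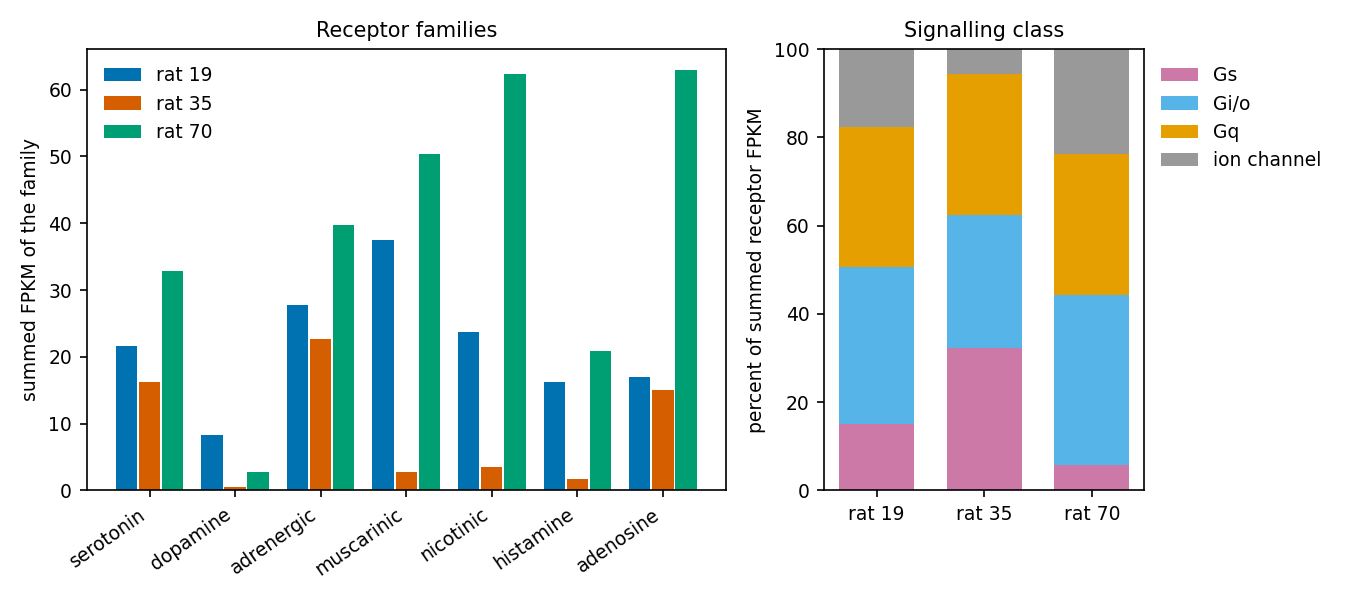
Left, summed FPKM of each receptor family in rats 19, 35 and 70; right, percent of the summed receptor FPKM by signalling class in each rat. Muscarinic, nicotinic, histamine and dopamine sums are low in rat 35 (2.80, 3.45, 1.71 and 0.507 FPKM), and the Gs share there is 32.2%.

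The promoters of 4 receptors at the ends of this range are shown, as the 250 bases before the RefSeq start (build GRCr8, matched by symbol, gene strand, 5′ to 3′). Htr2b (chr9:94204088-94204337, minus strand) and Adra2a (chr1:263066530-263066779, plus strand) were highest in rat 35, and Chrnb2 (chr2:177487307-177487556, minus strand) and Hrh3 (chr3:187574260-187574509, minus strand) were among the genes farthest below the others there. Capitals mark the GC box GGGCGG on either strand, which binds Sp1-type factors; overlapping matches are merged.
Htr2b: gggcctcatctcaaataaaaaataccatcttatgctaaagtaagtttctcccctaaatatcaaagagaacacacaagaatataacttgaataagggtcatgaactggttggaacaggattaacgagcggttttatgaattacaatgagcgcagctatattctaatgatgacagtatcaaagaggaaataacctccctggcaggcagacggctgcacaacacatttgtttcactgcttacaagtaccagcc
Adra2a: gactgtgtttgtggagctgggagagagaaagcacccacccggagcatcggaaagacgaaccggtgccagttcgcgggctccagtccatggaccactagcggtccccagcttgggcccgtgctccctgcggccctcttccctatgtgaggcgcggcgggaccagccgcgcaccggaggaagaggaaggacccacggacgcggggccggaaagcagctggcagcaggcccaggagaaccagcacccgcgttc
Chrnb2: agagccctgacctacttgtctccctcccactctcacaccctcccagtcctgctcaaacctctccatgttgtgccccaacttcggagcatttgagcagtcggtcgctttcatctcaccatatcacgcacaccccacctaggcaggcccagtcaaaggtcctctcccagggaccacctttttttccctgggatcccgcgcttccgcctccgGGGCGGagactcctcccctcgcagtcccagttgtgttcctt
Hrh3: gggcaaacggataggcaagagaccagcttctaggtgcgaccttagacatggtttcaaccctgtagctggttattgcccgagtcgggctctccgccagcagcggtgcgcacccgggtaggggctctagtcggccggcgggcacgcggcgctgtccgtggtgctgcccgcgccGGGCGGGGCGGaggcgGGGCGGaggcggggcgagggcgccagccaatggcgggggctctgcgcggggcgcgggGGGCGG

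The GC box occurred once in the Chrnb2 window, 4 times in that of Hrh3 and not in those of Htr2b and Adra2a. GC content was 39.6% for Htr2b, 67.6% for Adra2a, 59.6% for Chrnb2 and 73.6% for Hrh3. Of the 56 receptors, 43 had a promoter in the table, and 21 of these (48.8%) held a GC box, against 30.5% of 33469 promoters of the same length. Among receptors at a mean of 1 FPKM or more, it was present in 10 of the 18 with a promoter that were lowest in rat 35 and in 1 of 3 (Adora2b) that were highest there. The cyclic AMP response element TGACGTCA was found in 0 of 43 (1.59% of all promoters), and the left part of the RE1 element, TTCAGCACC, which belongs to a silencer of neuronal genes, in 0 of 43 (0.3%). The AP-1 element TGANTCA was in 1 of 43 (6.34%) and the TATA box TATAAA in 2 of 43 (12.9%), all on both strands. A match or its absence describes these letters in this window only.

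Muscarinic receptors are the G protein receptors of acetylcholine, and Chrm1, Chrm3 and Chrm5 act through Gq. Chrm1, the main excitatory muscarinic receptor of cortical pyramidal cells (chromosome 1, 224882439 to 224884205, Rnor 6.0), was at 23.9, 1.55 and 28.6 FPKM (18.0 ± 14.5, SD, n = 3). Rat 35 stood apart, on 45 fragments against 657 and 812, and rat 19 exceeded it 15.4-fold (11.4 to 21.4). Chrm3 was at 5.58, 0.459 and 14.5 FPKM (6.84 ± 7.10). It was also lowest in rat 35, but rat 70 was 2.60-fold above rat 19 (2.28 to 2.97), where Chrm1 was 1.20-fold above (1.08 to 1.33). Chrm5 was low throughout, at 0.831, 0.380 and 1.04.

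The Gi-coupled muscarinic receptors split rats 19 and 70. Chrm4, abundant in striatal projection neurons, was at 6.63, 0.331 and 3.12 FPKM (3.36 ± 3.16), and rat 70 was 0.471 times rat 19 (0.382 to 0.579). Chrm2, an autoreceptor of cholinergic axons that cortical and thalamic neurons also carry, was at 0.499, 0.0832 and 3.07 (1.22 ± 1.62), and rat 70 was 6.16-fold above rat 19 (3.67 to 11.0). So these receptors of the same coupling had opposite orders in those rats. Chrm4 ends within the last bases of Mdk, a growth factor gene on the other strand that was at 43.9, 150 and 25.8 FPKM. Within the family, Chrm1 held 63.8%, 55.2% and 56.9% of the FPKM, a narrow range beside the 13.4-fold difference in the sum between rats 19 and 35.

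Nicotinic receptors are pentamers, and the common type of the brain joins the subunits α4 and β2. Chrnb2, the β2 subunit (chromosome 2, 189088570 to 189096785), was at 9.82, 0.415 and 29.3 FPKM (13.2 ± 14.7). Chrna4, the α4 subunit, was at 6.51, 0.541 and 21.7 (9.59 ± 10.9). Both had the order rat 70, rat 19, rat 35 and differed by like factors between rats 70 and 19, 2.98-fold for Chrnb2 (2.64 to 3.38) and 3.33-fold for Chrna4 (3.02 to 3.68). Chrna7, which forms channels of its own with high calcium permeability, was at 3.36, 0.430 and 6.15 (3.31 ± 2.86), with a smaller factor of 1.83 (1.42 to 2.37).

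The other nicotinic subunits were each under a mean of 1 FPKM, and 3 of them showed little spread. Chrne, the ε subunit of the adult muscle receptor, was the highest of these subunits, at 0.828, 0.714 and 0.802 (0.781 ± 0.0595, SD, n = 3) on 21 to 23 fragments. Chrnb1, the β subunit of the muscle receptor, was at 0.593, 0.721 and 0.630, and Chrnb3 at 0.493, 0.513 and 0.359, both singled out after their values were seen. For each of the 3, the ratios between rats had intervals that include 1, so that no difference was detectable at this depth. In rat 35, Chrnb1 made up 20.9% and Chrne 20.7% of nicotinic FPKM, more than Chrnb2 (12.02%), against 2.51% and 3.50% in rat 19. Chrne overlaps LOC687707 on the other strand, which was at 0.187, 0 and 0.272 FPKM.

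The neighbouring genes Chrna5, Chrna3 and Chrnb4 on chromosome 8 lie 3555 and 2460 bp apart and did not follow 1 order, as was noticed after their values were seen. Chrna5, an accessory subunit of deep-layer cortical neurons, was at 1.52, 0.0132 and 0.555 FPKM, highest in rat 19 on 109 fragments and at 1 fragment in rat 35. Chrna3, a subunit of the habenula and autonomic ganglia, was at 0.0875, 0 and 1.46, with rat 70 16.7-fold above rat 19 (6.24 to 63.1). Chrnb4 was at 0.0749, 0.0708 and 0.218, on as few as 1, 1 and 3 fragments, so that no order could be read. Chrna1, Chrna2, Chrna6, Chrna9 and Chrna10 were at most at 0.581 FPKM in any rat.

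Serotonin receptors held the receptor that stood farthest above the other rats in rat 35. Htr2b, a Gq-coupled receptor best known from heart valves, vessels, fibroblasts and microglia (chromosome 9, 93112805 to 93125014), was at 0.554, 14.4 and 1.26 FPKM (5.40 ± 7.79). Rat 35 exceeded rat 19 26.0-fold (16.0 to 45.0) and rat 70 11.4-fold (8.23 to 16.1), on 467 fragments against 17 and 40. Its share of serotonin receptor FPKM was 2.56%, 88.5% and 3.85%. Htr2b lies within Psmd1, a proteasome gene on the other strand, and fragments of the genes cannot be assigned by strand here. Psmd1 was at 43.0, 45.5 and 54.6 FPKM, and its part in the Htr2b value was not tested. All 8 microglia, all 6 leukocyte, 4 of 5 fibroblast and all 6 pericyte markers were highest in rat 35 as well; their part in the Htr2b value was not tested.

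The other Gq-coupled serotonin receptors were lowest in rat 35. Htr2a, the receptor of cortical pyramidal cells through which psychedelics act, was at 3.59, 0.0395 and 3.06 FPKM (2.23 ± 1.92), with 3 fragments in rat 35 and a ratio of 91.0 between rats 19 and 35 (30.8 to 444). Htr2c, which is also abundant in choroid plexus epithelium, was at 5.62, 0.145 and 9.30 (5.02 ± 4.605). It was 1.65-fold higher in rat 70 than in rat 19 (1.47 to 1.85). The 5 choroid plexus markers in the files did not share 1 order. Ttr, at 33.1, 0.173 and 362 FPKM, and Clic6, at 0.842, 0.0682 and 2.32, had the order of Htr2c. Folr1 was at 1.57, 2.09 and 2.02, Kl at 0.452, 0.633 and 0.633, and Kcnj13 at 3.94, 3.87 and 2.73. The summed level of the 5 was 39.9, 6.83 and 369. The part of choroid plexus in the Htr2c value was not tested.

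Among inhibitory serotonin receptors, Htr1b, a terminal autoreceptor, was at 3.01, 0.671 and 5.99 FPKM (3.22 ± 2.67). Htr1a, an autoreceptor of serotonin neurons also found on cortical and hippocampal neurons, was at 0.760, 0.287 and 3.44 (1.495 ± 1.70), and rat 70 was 4.52-fold above rat 19 (2.57 to 8.51). Rats 19 and 35 were not apart for Htr1a at this depth (ratio 2.64, 0.970 to 8.32). Htr5a was at 2.76, 0.124 and 3.85 (2.25 ± 1.92). Htr3a, the channel subunit of a class of cortical interneurons, was at 3.02, 0.0303 and 2.18 (1.74 ± 1.54), with 94, 1 and 70 fragments. Of the serotonin receptors under a mean of 1 FPKM, Htr5b was highest, at 0.435, 0.411 and 1.40, and Htr1d, Htr1f, Htr4 and Htr6 were at most at 1.13 FPKM in any rat.

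Dopamine receptors were low in the cortex and highest in rat 19. Drd1, the Gs-coupled receptor of striatal and some cortical neurons, was at 6.41, 0.380 and 1.73 FPKM (2.84 ± 3.16), and rat 70 was 0.2696 times rat 19 (0.200 to 0.359). Drd2, the Gi-coupled counterpart, was at 1.15, 0.0427 and 0.614 (0.603 ± 0.555), on 51, 2 and 28 fragments. Both had the order rat 19, rat 70, rat 35. The 6 striatal markers had the same order in their sum (105, 23.0 and 55.2 FPKM), with Gpr6 at 0 in rat 35 and Ppp1r1b, which cortical neurons also express, highest in rat 70 (36.7, 13.7 and 44.6). The part of striatal tissue in the dopamine receptor values was not tested. Drd3 and Drd4 were above 0 in 1 rat each, at 0.0410 FPKM in rat 35 and 0.0440 in rat 70, and Drd5 was at 0.810, 0.0425 and 0.349.

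Adrenergic receptors went in both directions. Adra1d, a Gq-coupled receptor of cortical neurons, was at 4.43, 0.783 and 21.0 FPKM (8.72 ± 10.7), and rat 70 was 4.73-fold above rat 19 (4.07 to 5.53). Adra1b, of the same class, was at 1.57, 1.12 and 5.37 (2.69 ± 2.34), again highest in rat 70, but rats 19 and 35 were not apart beyond counting error (1.40, 0.941 to 2.10). Adra2c, a Gi-coupled receptor of striatum and cortex, was at 7.39, 0.2496 and 4.24 (3.96 ± 3.58) and thus highest in rat 19.

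Adra2a had another order. This gene, the Gi-coupled autoreceptor of noradrenergic axons, also carried by glia, was at 6.80, 8.27 and 2.09 FPKM (5.72 ± 3.23). It was highest in rat 35 and lowest in rat 70, and rat 19 exceeded rat 70 3.25-fold (2.57 to 4.14). Rat 35 exceeded rat 19 by only 1.22-fold (1.04 to 1.42). The summed markers of microglia and macrophages, endothelium, pericytes and smooth muscle, and fibroblasts had this order as well, although 2 fibroblast markers were lowest in rat 19. Summed leukocyte markers were highest in rat 35 but lowest in rat 19 (205, 2407 and 385 FPKM). Those of astrocytes were lowest in rat 35 (1154, 437 and 1186 FPKM). The part of these cell types in the Adra2a value was not tested. Adrb1, the Gs-coupled receptor of neurons and astrocytes, was at 2.61, 1.34 and 3.42 (2.46 ± 1.05) and differed less, by 0.92 on the log2(FPKM + 1) scale between the highest and lowest rat. Adra2b was the highest adrenergic receptor under a mean of 1 FPKM, at 0.0794, 0.165 and 1.91, on 5, 11 and 124 fragments. It was highest in rat 70, 24.0-fold above rat 19 (10.03 to 75.4), and is known from the thalamus. Adra1a and Adrb3 were at most at 0.336 FPKM in any rat.

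**Figure D3:**
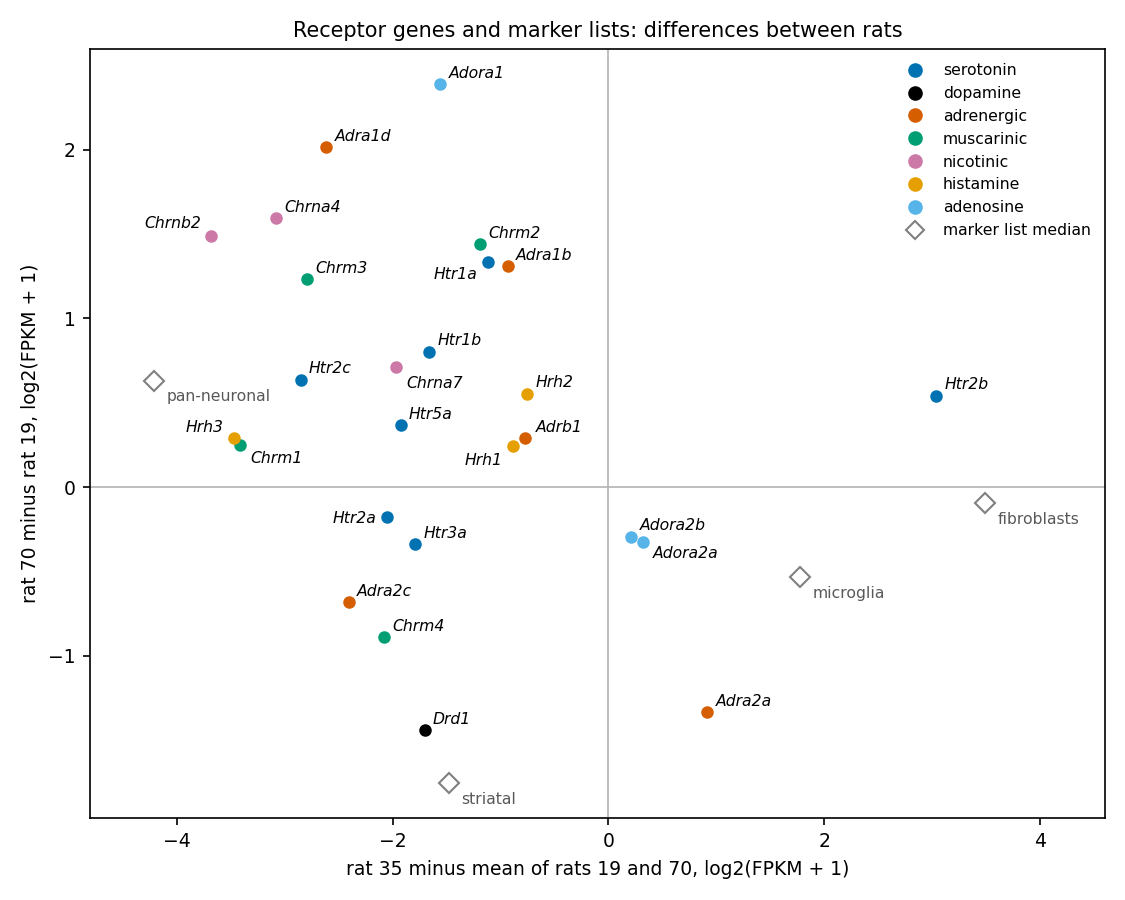
Each of 26 points is a receptor gene with a mean of 1 FPKM or more, placed by its level in rat 35 minus the mean of rats 19 and 70 (x axis) and by rat 70 minus rat 19 (y axis), both on the log2(FPKM + 1) scale; diamonds are medians of marker lists. Htr2b lies far right (3.04), Adora1 at the top (2.39), and Chrnb2 is farthest left among receptors (-3.68), short of the pan-neuronal median (-4.21).

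Histamine receptors fell into an abundant presynaptic and a pair of weaker postsynaptic members. Hrh3, the Gi-coupled autoreceptor and heteroreceptor of axon terminals, was at 13.1, 0.403 and 16.2 FPKM (9.90 ± 8.37), and rat 19 was 32.4-fold above rat 35 (22.7 to 48.0). Hrh1, the Gq-coupled target of sedating antihistamines, was at 2.18, 0.871 and 2.75 (1.93 ± 0.964), only 2.50-fold above rat 35 in rat 19 (1.54 to 4.16). Hrh2, coupled to Gs, was at 0.995, 0.437 and 1.93 (1.12 ± 0.754). Hrh3 thus held 80.5%, 23.6% and 77.6% of histamine receptor FPKM, and in rat 35 Hrh1 was the largest with 50.9%.

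Adenosine receptors differed least of the families between rats 19 and 35, by 1.12-fold in their sum. Adora1, the Gi-coupled receptor through which adenosine curbs transmitter release (chromosome 13, 51042248 to 51076852), had the highest mean of the 56 genes, at 10.2, 7.72 and 57.8 FPKM (25.3 ± 28.2). Rats 19 and 35 were 1.33-fold apart (1.18 to 1.49), while rat 70 was 5.65-fold above rat 19 (5.20 to 6.14). No other member at a mean of 1 FPKM or more had so large a log2 difference between rats 70 and 19 (2.39). Rat 35 stood at -1.56 log2 from the mean of the other rats, and at -0.37 from rat 19 alone. Adora2a, the Gs-coupled receptor of striatal neurons that immune cells also use, was at 2.66, 3.08 and 1.93 (2.56 ± 0.582). Adora2b, a Gs-coupled receptor of low affinity found on glia and vessels, was at 4.07, 4.30 and 3.13 (3.83 ± 0.619). Rats 35 and 19 were not apart beyond counting error, at a ratio of 1.16 for Adora2a (0.884 to 1.52) and 1.06 for Adora2b (0.819 to 1.37). Adora2a and Adora2b, with Adrb1, were the members at a mean of 1 FPKM or more that did not pass 1 on the log2(FPKM + 1) scale between rats. In FPKM itself, Adrb1 was 2.55-fold higher in rat 70 than in rat 35.

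**Figure D4:**
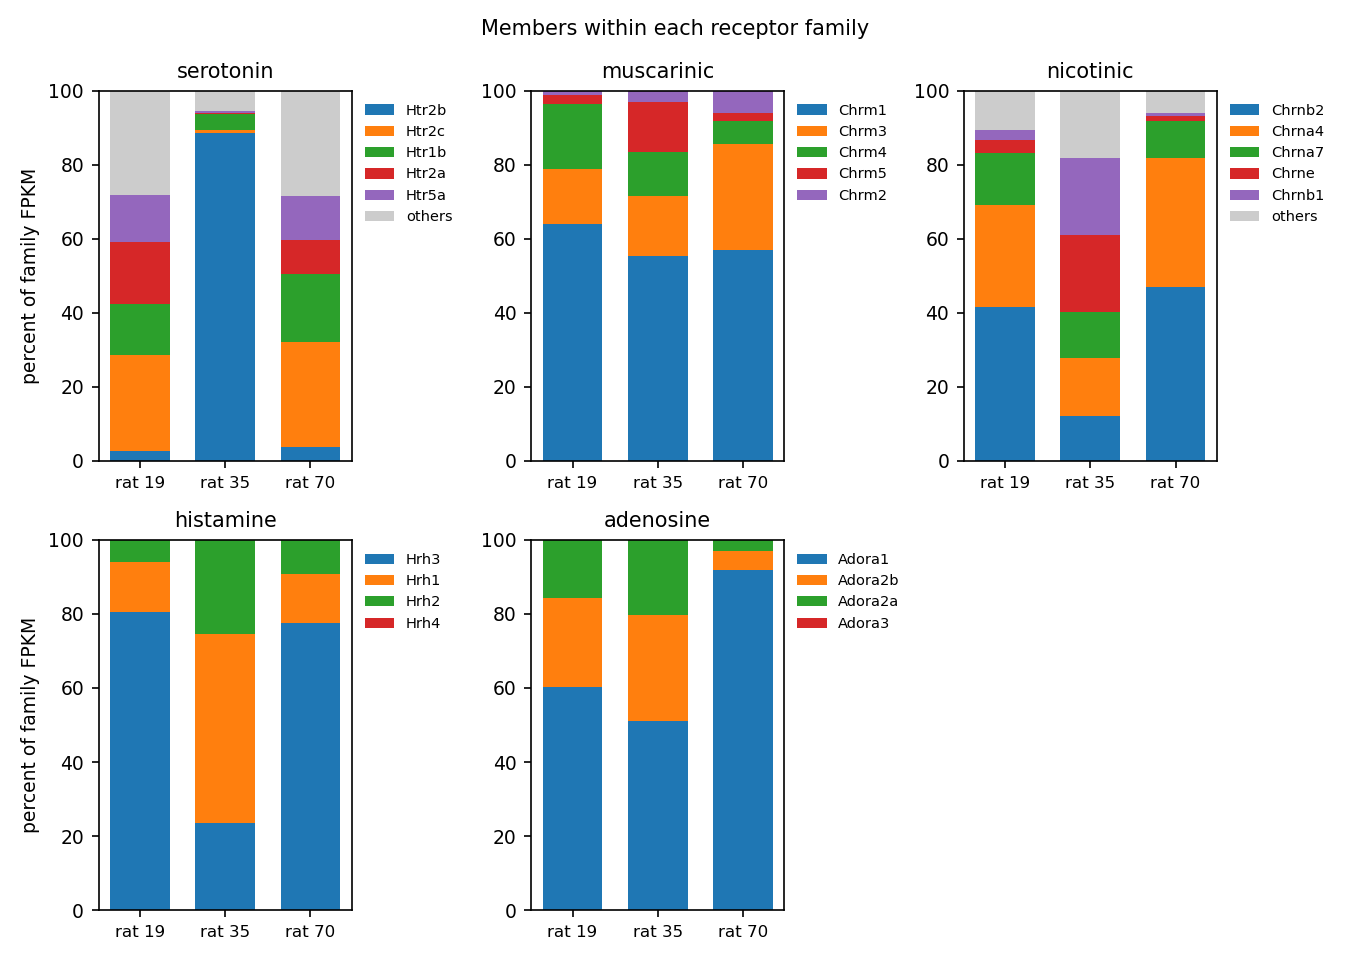
Percent of a family's summed FPKM taken by each member in rats 19, 35 and 70, for 5 families; the grey part pools members beyond the 5 largest. Htr2b takes 88.5% of serotonin receptor FPKM in rat 35, Adora1 91.9% of adenosine receptor FPKM in rat 70, and Chrm1 55.2% or more of muscarinic FPKM in each rat.

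Rats 19 and 70 also differed in the receptors they expressed, beside a median of 0.63 log2 more in rat 70 over the 11 pan-neuronal markers. Rat 70 was over 1 log2 above rat 19 for 8 of the 27 receptors (Adora1, Adra1d, Chrna4, Chrnb2, Chrm2, Htr1a, Adra1b and Chrm3), where 4.83% of all genes were. It was over 1 log2 below for 3, among them Drd1 and Adra2a, against 5.99%. A list of 8 genes taken as thalamic markers was chosen after the data were seen. Of these, 3 were over 1 log2 higher in rat 70 than in rat 19 and 2 lower. Of them Prkcd, at 18.1, 42.7 and 153 FPKM, Rora, at 0.456, 1.80 and 2.77, and Slc17a6, at 1.73, 0.0147 and 28.7, were higher in rat 70 than in rat 19, and Tnnt1 (3.83, 4.09 and 0.914) and Cplx3 (5.51, 0.125 and 0.771) were lower. The summed level of the 8 was 72.1, 146 and 261, with none at 0. Zic1, at 18.1, 79.9 and 36.9, was the largest of them in rat 35. Whether each of the 8 is specific to thalamus was not tested. The 7 hippocampal markers, likewise chosen, summed to 47.6, 9.46 and 76.6, with Fibcd1 listed at 0. The part of tissue next to the motor cortex in the receptor values of rat 70 was not tested.

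The receptors' median lay between that of neuronal markers and that of all genes. The median difference of rat 35 from the mean of the other rats was -4.21 log2 for the 11 pan-neuronal markers, -3.37 for 6 excitatory and -2.84 for 6 inhibitory neuron markers, and -1.70 for the 27 receptors, where all genes had 0.09. The +1 in the scale compresses the difference for receptors, most of which were low. Receptors nearest to the pan-neuronal value on this scale were Chrnb2 (-3.68), Hrh3 (-3.47), Chrm1 (-3.41) and Chrna4 (-3.08). This ranking depends on the added 1. With 0.1 added instead, Chrm3 (-4.02) and Adra2c (-4.03) were farther below the other rats in rat 35 than Chrm1 (-3.99). In FPKM itself, rat 19 exceeded rat 35 by 91.0-fold for Htr2a and by 15.4-fold for Chrm1.

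**Figure D5:**
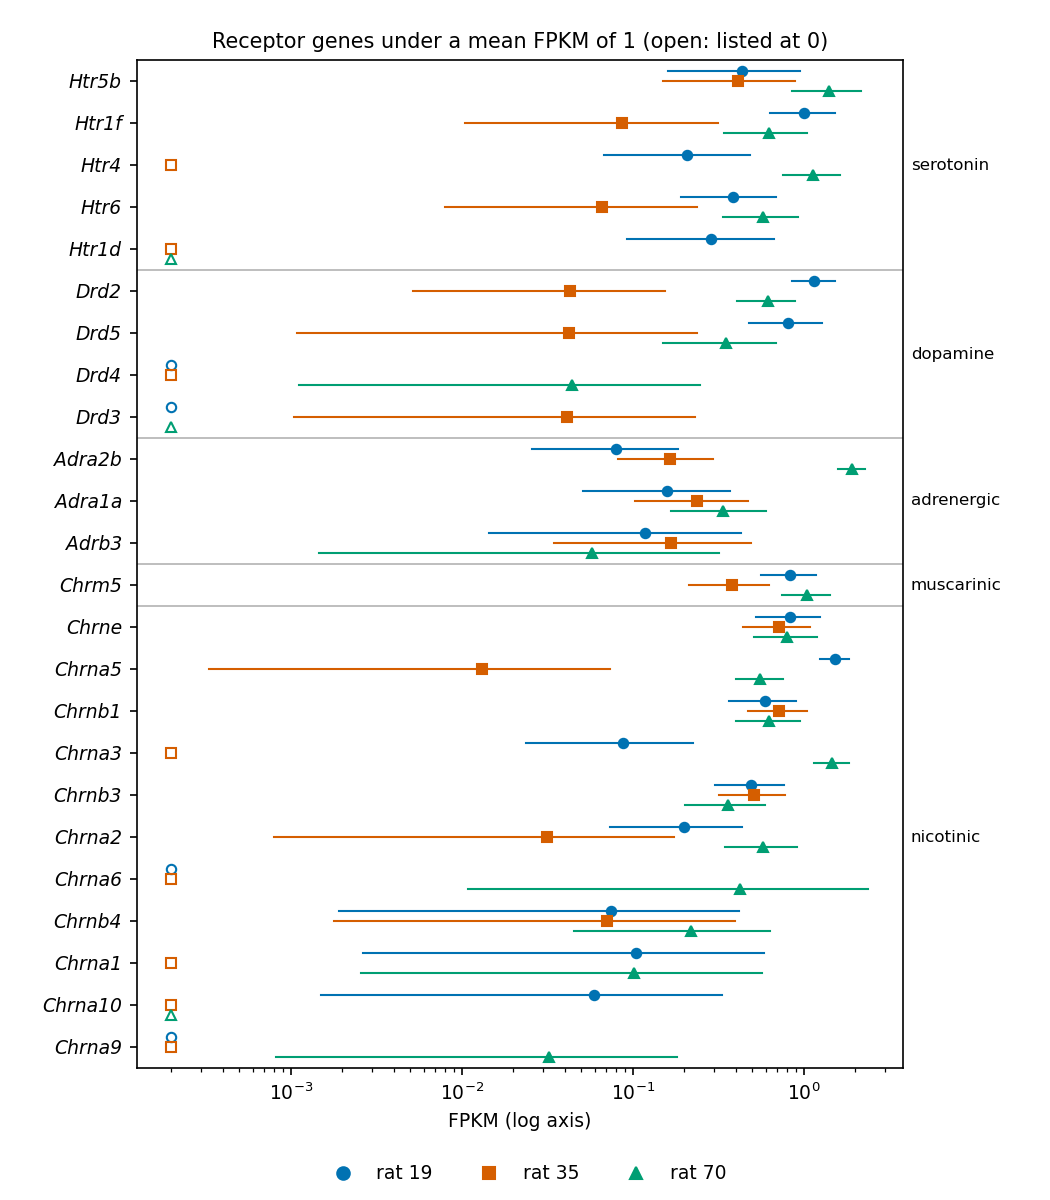
FPKM (log axis) of the 24 receptor genes under a mean of 1 FPKM but above 0, with 95% Poisson intervals on the recovered fragments; open symbols at the left edge are rats in which the gene is listed at 0. Adra2b and Chrna3 stand out in rat 70 and Chrna5 in rat 19, while Chrne, Chrnb1 and Chrnb3 lie together.

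Pairs of receptors within 1 rat do not depend on scaling apart from the added 1, so 8 pairs were compared by exact permutation of the signs (two-sided). With 3 rats this cannot give a p below 0.25. In 5 pairs the same member was higher in 3 of 3 rats, each with an exact permutation p = 0.25 and 0.40 after Benjamini-Hochberg adjustment over 8, so none could pass. Adora1 exceeded Adora2a by 1.62, 1.10 and 4.33 log2, Chrm1 exceeded Chrm2 by 4.05, 1.23 and 2.86, and Drd1 exceeded Drd2 by 1.78, 0.40 and 0.76. Chrna4 exceeded Chrna7 by 0.78, 0.11 and 1.67, and Htr2a was below Htr2c (-0.53, -0.14 and -1.34). The other 3 pairs changed sign between rats, and 2 of them are given. Hrh3 was above Hrh1 in rats 19 and 70 and below it in rat 35 (2.15, -0.42 and 2.20, exact p = 0.50, adjusted 0.667). Adra2a was above Adra1d in rats 19 and 35 and below it in rat 70 (0.52, 2.38 and -2.83, exact p = 1, adjusted 1).

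Genes that make, store and clear the transmitters were mostly low. Of 28 listed, 27 were in the files and 12 reached a mean of 1 FPKM. Among these 12, 4 were lowest in rat 35 (36.6% of all genes) and 5 highest (45.5%), near the shares over all genes. Of the 12, 8 were over 2-fold apart (42.5% of all genes), or 1 without rat 35 (10.9%). Ada, which degrades adenosine, was at 5.54, 19.8 and 2.10 FPKM, highest in rat 35 and lowest in rat 70, as was Adra2a. The monoamine oxidases differed less, Maob at 60.5, 34.6 and 34.0 and Maoa at 38.1, 37.2 and 26.7. Ache, the enzyme that splits acetylcholine, was at 3.61, 0.612 and 8.05 and had the order of Chrnb2 and Chrna4.

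Downstream of the receptors, 33 of 33 listed genes reached a mean of 1 FPKM; 20 were lowest in rat 35 (36.6% of all genes) and 9 highest (45.5%). Of the 33, 27 were over 2-fold apart (42.5% of all genes), or 8 without rat 35 (10.9%). The α subunit of Gs, Gnas, was at 106, 91.3 and 92.4 FPKM (96.5 ± 8.12, SD, n = 3), a difference of 0.21 log2. The Gi/o subunits split: Gnai2, common in immune cells, was at 186, 334 and 132, and Gnao1, the main neuronal one, at 111, 23.0 and 153. Gnaz (21.1, 1.38 and 26.6), Gnal (11.0, 0.599 and 18.4) and the calcium-activated adenylyl cyclase Adcy1 (5.09, 1.16 and 25.8) had the largest spread on the log2 scale and were lowest in rat 35. This list shares Ppp1r1b and Rgs9 with the striatal markers.

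Of 13 genes for receptor assembly and accessory proteins, 11 reached a mean of 1 FPKM, 9 of them lowest in rat 35 (36.6% of all genes) and 1, S100a10, highest (45.5%). Of the 11, 10 were over 2-fold apart (42.5% of all genes), or 2 without rat 35 (10.9%). The largest spread was that of 3 nicotinic partners. Lynx1, a brake on nicotinic channels, was at 26.1, 1.22 and 82.5 FPKM, and Ly6h at 82.9, 2.37 and 37.2. Tmem35, a chaperone of nicotinic assembly, was at 49.6, 1.53 and 36.4. Not all such genes in the list differed so much, with Ric3 at 8.89, 1.63 and 13.6 and Ly6e at 21.2, 14.2 and 13.2. The most abundant were Ppp1r9b, a spine scaffold (128, 61.0 and 195), S100a10, which binds serotonin receptors (105, 183 and 69.7), and Nptn (105, 52.7 and 137). Lynx1 had the order of Chrna4 and Chrnb2, rat 70 above rat 19, and Ly6h and Tmem35 had the reverse between these rats.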

How the data were processed

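mRNA, separated from purified total RNA per the labels' protocols, was sequenced from 3 rats. The deposited values are FPKM: the authors counted fragments per gene, normalized them by a method not given in the sources used here, and calculated FPKM, per the labels' design text. The submitters' processing notes list HISAT2 2.0.4, StringTie 1.3.0 and the build Rnor 6.0, with no role given, and whether counting used strand is not given. Libraries were taken as separate animals from their own numbers; spread between them may be partly technical.

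FPKM was used as deposited, 1 row per symbol (highest mean), with a pseudocount of 1 and a minimum mean of 1 FPKM for counts. The FPKM of 1 fragment on 1 kb was found from genes spanning under 1500 bp, of which 75.7% to 76.9% of low values came out whole (within 0.01); a gene's length was its span where that gave whole fragments within 0.005, otherwise the shortest that did, up to 20000 bp, so fragments can be too few for genes with few. Steps were tested on simulated data. Python 3.11.15, numpy 2.4.6, pandas 2.3.3 and scipy 1.17.1 were used.

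Members, lists, pairs and the fold were chosen with earlier results of these data known. Named were all receptors at the minimum, the highest of each family below it, in each pathway list the 3 of highest mean and the 3 of largest SD (log2), and the pairs; genes named beyond this were chosen after their values were seen. A receptor, a synthesis, uptake and breakdown gene and a pair that fall under the rule are counted but not reported here. Alternatives were a pseudocount of 0.1, minima of 0.5, 5 or none, rescaling to a sum of 1000000, median of ratios, summed rows, and leaving out each rat.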

Additional observations from a re-analysis of the deposited data

How the results depend on the processing

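No paired analysis was possible because the 3 rats form 1 group. With a minimum mean of 5 FPKM, 11 receptors remained in the count, 8 lowest and 3 highest in rat 35 and 11 over 2-fold apart, and 5 synthesis, uptake and breakdown genes were over 2-fold apart; with no minimum, 51 receptors were counted, 35 lowest and 9 highest in rat 35. These counts differ from the main ones (27, 22, 5 and 24, and 8) by construction, since fewer or more genes were counted. At a minimum of 5, 36.9% of all genes were lowest in rat 35, 45.3% highest there and 40.8% over 2-fold apart. With no minimum, 35.3% of the 18792 genes above 0 in any rat were lowest in rat 35 and 41.7% highest. With each library rescaled to 1000000, the median gene stood 0.87 log2 higher and 36 receptors passed the minimum. Leaving out a rat moved the receptors over 2-fold apart to between 11 (without rat 35) and 24. The share of all genes over 2-fold apart moved too, to 10.9% without rat 35, 26.2% without rat 70 and 37.3% without rat 19. The signal transduction genes moved to between 8 (without rat 35) and 25, with 14 without rat 70. For synthesis, uptake and breakdown genes the range was 1 (without rat 35) to 9, with 5 without rat 19. For accessory genes it was 2 (without rat 35) to 10. Deviations are taken from the mean of the rats kept, so leaving out a rat moves them by construction. The median receptor deviation of rat 19 was 0.23 and ranged from -0.15 without rat 35, where it changed sign, to 0.84 without rat 70. That of rat 70 (0.83) was 0.15 without rat 35 and otherwise 0.34 (no minimum) to 1.32 (pseudocount of 0.1), and that of rat 35 (-1.14) ran from -0.47 (no minimum) to -1.94 (pseudocount of 0.1). Of 54 named receptor differences, 12 crossed 1 log2 under any alternative run and 0 past 1 log2 changed sign. The minima cannot alter a gene's difference, and leaving out rat 35 cannot alter that between rats 70 and 19. These counts therefore rest on the other runs. Without rat 70, rat 35 against the others moved from -1.56 to -0.37 for Adora1, from -1.19 to -0.47 for Chrm2 and from -1.12 to -0.45 for Htr1a. Receptors under 1 FPKM rest on few fragments, and their ratios are limited by depth.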
